A study of Mus musculus with 8 samples.

Results

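ITGA6bright *Troy*-EGFP+ basal layer cells of mouse epidermis were set against all viable epidermal cells of the same animals, gene by gene. The comparison rests on 4 bulk mRNA libraries, with each population sorted from the same 2 mice, out of 12 bulk libraries and single-cell plates in the series. The libraries were chosen by their sorting gate alone, so no measured value entered the choice. All mice were adult C57BL/6 animals carrying the *Troy*-EGFP-IRES-CreERT2 knockin allele, in which EGFP and a tamoxifen-inducible Cre stand in place of the coding region of *Troy* (*Tnfrsf19*, a receptor of the TNF family). No treatment is given for any of these libraries, and no population lacked the knockin. Viable cells were those that excluded the dye DAPI, with no gate on ITGA6 or EGFP. That population therefore held the *Troy*-EGFP+ basal layer cells too, and every fold below compares a part of the epidermis with the whole. The *Troy*-EGFP– libraries, from ITGA6bright cells of the same mice, entered the fit and are given beside the results.

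The epidermis is renewed by basal layer cells that sit on the basement membrane, which they grip through hemidesmosomes built on integrin alpha 6 (ITGA6) and integrin beta 4. Cells that leave the basal layer of the interfollicular epidermis (IFE) switch from keratins 5 and 14 to keratins 1 and 10, while the hair follicle (HF) keeps its own basal cells, among them those of the bulge, the upper follicle and the sebaceous duct. A suspension of viable epidermal cells also holds Langerhans cells, T cells and melanocytes. In bulk samples, fewer cells of a type and less RNA per cell cannot be told apart.

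The 4 libraries held between 237223 and 453005 counts, and the *Troy*-EGFP– libraries 157537 and 188225. At these depths, 3 counts in a library of the comparison amounted to between 6.76 and 13.5 CPM, a level in which counts are scaled to the same total in every library. Mitochondrial transcripts took between 12.5% and 16.1% of the counts of all 6 bulk libraries. *Kcnq1ot1*, a long non-coding RNA that the study used as a mark of necrotic cells in its single-cell plates, and named here for that use, took 1.84% of the counts in viable cells of mouse 1 and between 0.708% and 0.768% in the other 3 libraries of the comparison. Its part in the results was not tested. The spread between the mice of a population, as a coefficient of variation beyond counting noise, was 0.104 for *Troy*-EGFP+ cells and 0.143 for viable cells, against 0.31 for *Troy*-EGFP– cells. CEL-Seq2 reads only the 3′ end of a transcript, so that counts do not scale with gene length. In the values below, the first of a pair is mouse 1 and the second mouse 2, and where a pair is set against another the viable cells come first. Levels of single genes are CPM after scaling between libraries.

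More genes were called lower than higher in *Troy*-EGFP+ basal layer cells than in the viable epidermis. Among the lower genes, those with the lowest p by edgeR were the follicle genes *Lhx2*, *Cst6*, *Foxc1*, *Krt79*, *Defb6* and *Krt17*. With them fell the class II antigen presentation genes *H2-Ab1* and *H2-Eb1*. The higher genes were *Mir5109*, *Ikzf2* and *Eif4g3*. Of 4653 genes tested, 22 or 0.473% were called at a Benjamini-Hochberg threshold of 0.05, by the quasi-likelihood F test of edgeR over all 6 bulk libraries. Of these, 3 were higher (0.0645% of the genes tested) and 19 lower (0.408%) in *Troy*-EGFP+ cells. Before adjustment, 104 higher and 206 lower genes had a p under 0.05. All 22 moved the same way in both mice. Over all tested genes the median log2 fold change was 0.0095, and 51% lay above 0. Both *Troy*-EGFP+ libraries lay above both viable libraries for 959 genes, 20.6% of those tested, and below both for 914, or 19.6%. Across genes, the log2 folds of mouse 1 and mouse 2 were only loosely related (Pearson r = 0.293, Spearman rho = 0.214, over 4653 genes that are not independent replicates).

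The number of genes called depended on the fit, the libraries in it and the tool. With the mouse as a block, since the populations of a mouse come from 1 animal, 49 genes were called (1.05%), 8 higher and 41 lower, among them all 22. In a fit of only the 4 libraries compared, with the same block, 185 of 4969 genes were called, 59 higher (1.19%) and the others lower (2.54%), and 21 of the 22 were among them. *Nt5e* was not tested there. That fit leaves a single residual degree of freedom, and 6 of its 185 genes, *Kcnq1ot1* among them, did not move the same way in both mice. DESeq2 with standard parameters called 10 genes, 9 of them among the 22, and the other was *mt-Rnr1*, named here after its values were seen. Leaving out a library of viable cells or *Troy*-EGFP+ cells lowered the count, to 11 without viable cells of mouse 1, 19 without viable cells of mouse 2, 7 without *Troy*-EGFP+ cells of mouse 1 and 12 without *Troy*-EGFP+ cells of mouse 2. Leaving out a *Troy*-EGFP– library raised it, to 124 for mouse 1 and 123 for mouse 2. *Cst6*, *Foxc1*, *Lhx2* and *Mir5109* kept their call without each of the 4 libraries in turn. The 6 genes *Col6a1*, *Rnf10*, *S100a4*, *Sfrp1*, *Ikzf2* and *Eif4g3* lost it whichever of the 4 was left out, and also with DESeq2. *Krt17*, *Krt79* and *Defb6* lost it without *Troy*-EGFP+ cells of mouse 1 alone, and the other 9 without between 1 and 3 of the 4 libraries.

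**Figure D1:**
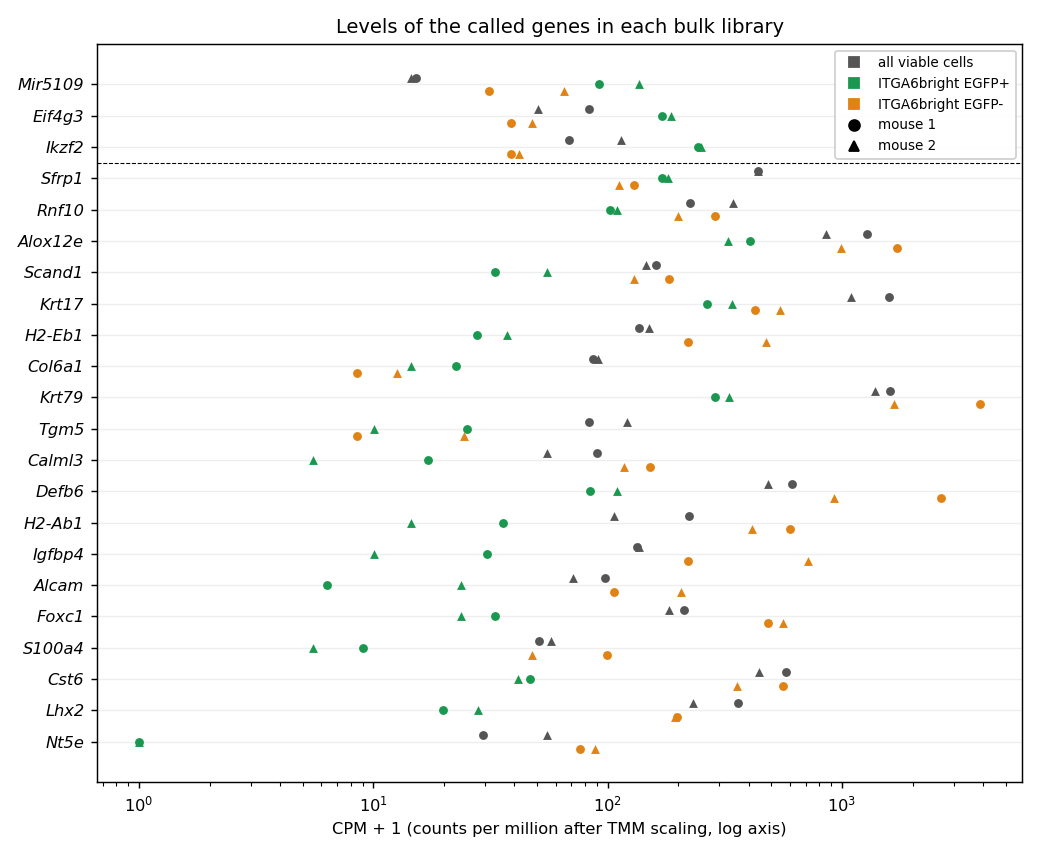
Levels of the 22 called genes in each bulk library, as CPM + 1 on a log axis, with the 3 higher genes above the dashed line. Colors mark viable, *Troy*-EGFP+ and *Troy*-EGFP– cells, circles mouse 1 and triangles mouse 2. For every gene the green points of *Troy*-EGFP+ cells lie apart from the grey points of viable cells, and *Nt5e* is at 0 CPM in *Troy*-EGFP+ cells.

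**Figure D2:**
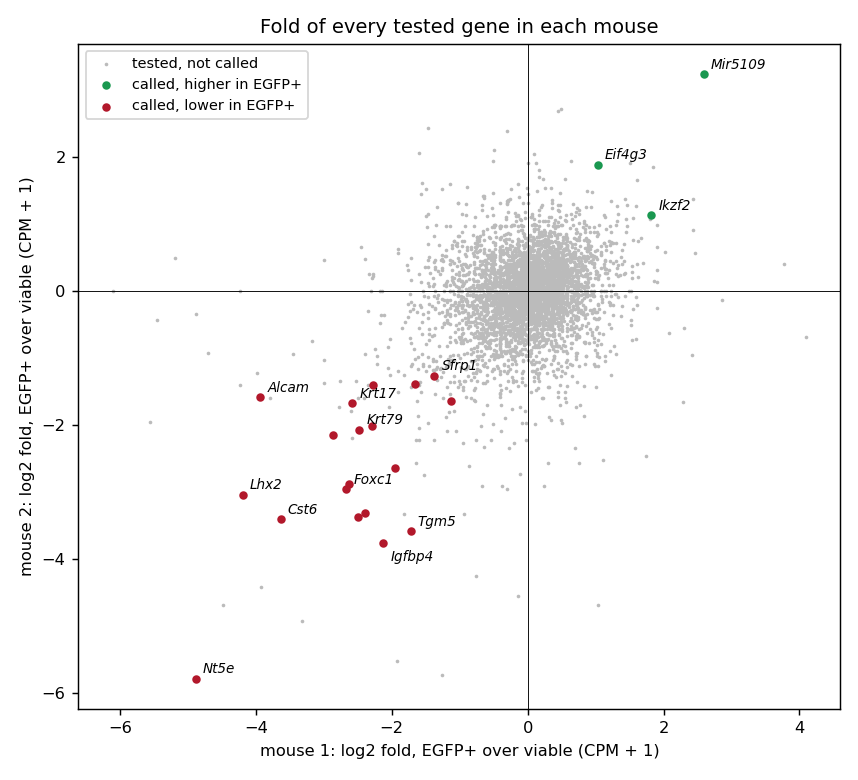
Log2 fold of *Troy*-EGFP+ over viable cells in mouse 1 (x axis) and mouse 2 (y axis) for the 4653 tested genes, from CPM with a pseudocount of 1. The 19 genes called lower (red) lie in the lower left quadrant and the 3 called higher (green) in the upper right, while most genes (grey) form a cloud around 0.

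To show the genes by their start sites, the RefSeq windows of GRCm38.p6 from 250 bases before to 30 bases after the annotated start are given for *Lhx2*, *Foxc1* and *Krt79*, follicle genes that fell together. *Lhx2* has a further start, and its first window is shown. Capitals mark matches, on either strand, to a GC box (GGGCGG) or a CCAAT box (CCAAT). The 3 windows lie at chr2:38339031-38339310 on the plus strand, chr13:31806396-31806675 on the plus strand and chr15:101940295-101940574 on the minus strand.
Lhx2: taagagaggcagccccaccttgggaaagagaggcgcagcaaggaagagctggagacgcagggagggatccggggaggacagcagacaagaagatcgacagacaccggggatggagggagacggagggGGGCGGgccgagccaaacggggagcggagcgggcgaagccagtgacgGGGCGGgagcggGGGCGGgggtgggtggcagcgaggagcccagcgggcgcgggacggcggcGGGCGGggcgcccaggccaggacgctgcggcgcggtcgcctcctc
Foxc1: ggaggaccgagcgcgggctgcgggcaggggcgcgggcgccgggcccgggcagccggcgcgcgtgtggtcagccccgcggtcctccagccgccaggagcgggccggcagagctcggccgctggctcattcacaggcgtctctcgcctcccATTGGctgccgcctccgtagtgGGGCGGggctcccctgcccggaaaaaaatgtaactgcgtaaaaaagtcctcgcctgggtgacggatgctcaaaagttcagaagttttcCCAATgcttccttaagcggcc
Krt79: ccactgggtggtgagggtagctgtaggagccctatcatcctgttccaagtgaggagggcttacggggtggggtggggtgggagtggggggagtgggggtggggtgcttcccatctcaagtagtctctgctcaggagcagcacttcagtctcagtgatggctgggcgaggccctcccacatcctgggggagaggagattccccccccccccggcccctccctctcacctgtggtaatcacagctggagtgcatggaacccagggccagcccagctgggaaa
The *Lhx2* window held 4 GC boxes, the *Foxc1* window 1 GC box and 2 CCAAT boxes, and the *Krt79* window none of the motifs searched. Windows were found for 15 of the 22 called genes, 17 windows in all. A GC box stood in 6 of the 17, against 34.7% of all 32851 windows, and a CCAAT box in 6 of the 17, against 36.1%. A TATA box (TATAAA) stood in 3 of the 17 and in 13.1% of all windows, and an AP-1 motif (TGANTCA) in 1 and in 7.46%. The forkhead motif TGTTTAC stood in 1 and in 3.49%, and the LIM homeodomain motif TAATTA in 0 and in 5.09%. These letters are matches in a window and not sites of binding.

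Of the gene lists examined, the upper follicle and sebaceous duct held the most called genes, all of them lower in *Troy*-EGFP+ cells. The lists were written with earlier results of these data known, so this rank is a description only. *Cst6*, which encodes the cysteine protease inhibitor cystatin E/M (chromosome 19, 5344705 to 5349574, GRCm38.p6), stood at 577 and 439.5 CPM in viable cells of mouse 1 and mouse 2 and at 45.6 and 40.6 CPM in *Troy*-EGFP+ cells. It was 11.5-fold lower, with a log2 fold change of -3.53 ± 0.36 (SE, n = 2 mice per population) and an adjusted p of 1.58e-05 by edgeR. The *Troy*-EGFP– libraries of these mice held 559 and 356 CPM. The low level was found in *Troy*-EGFP+ cells, with no overlap with either of the other populations. *Krt79*, a keratin of the hair canal and sebaceous duct (chromosome 15, 101929332 to 101940324), was at 1599.9 and 1386 CPM in viable and 287 and 329 CPM in *Troy*-EGFP+ cells. It was 4.86-fold lower (log2 fold change -2.28 ± 0.37, adjusted p = 0.00362), and *Troy*-EGFP– cells held 3895 and 1674 CPM. *Defb6*, a beta-defensin with antimicrobial activity (chromosome 8, 19225478 to 19228209), was at 613 and 482 CPM in viable cells and 83.1 and 108 CPM in *Troy*-EGFP+ cells. Its log2 fold change was -2.53 ± 0.43 (adjusted p = 0.0055), and its level in *Troy*-EGFP– cells, 2649.8 and 927 CPM, was the highest of the 3 populations in both mice. *Krt17*, a keratin of the follicle (chromosome 11, 100256215 to 100261029), fell from 1593 and 1086 CPM to 265 and 338 CPM (log2 fold change -2.16 ± 0.31, adjusted p = 0.000954). It was also low in *Troy*-EGFP– cells, at 423 and 542 CPM, and did not pass the test between *Troy*-EGFP+ and *Troy*-EGFP– cells (adjusted p = 0.225 by edgeR).

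Of the 20 genes listed for the upper follicle and sebaceous duct, 17 had a count and 12 were tested. Their median log2 fold change was -1.84, 4 were called lower and 0 higher, and 9 lay below both viable libraries. Of all genes tested, 0.408% were called lower and 19.6% lay below both viable libraries. With the mouse as a block the calls rose to 5, with *Gata6* added, and in the 4-library fit with the block to 8, with *Krt6a*, *Sostdc1* and *Cd200* added as well. *Cd200*, in this list but a surface glycoprotein of bulge cells too, is named here after its values were seen. It was at 42.8 and 47.3 CPM against 5.36 and 13.5 CPM. *Gata6*, a transcription factor of the sebaceous duct named after its values were seen, stood at 118 and 194 CPM in viable cells. In *Troy*-EGFP+ cells it stood at 21.4 and 63.1 CPM (log2 fold change -2.04 ± 0.54, adjusted p = 0.129 by edgeR, and 0.00133 with the block). Under the alternatives its log2 fold change ran from -2.86 to -1.31. *Sostdc1*, a secreted antagonist of BMP and Wnt signals, was at 1871 and 2164 CPM against 1364 and 1412 CPM (log2 fold change -0.54 ± 0.31, adjusted p = 0.839). *Krt6a*, a follicle and wound keratin that the study counts among bulge markers, was at 125 and 325 CPM against 72.3 and 158 CPM. The mice of each population differed by more than 2-fold (log2 fold change -1.07 ± 0.40, adjusted p = 0.538 by edgeR). Under the alternatives the log2 fold change of *Krt6a* ran from -1.67 to -0.166. *Aldh3a1* was at 841 and 1127 CPM against 828 and 920 CPM, and the groups overlapped. The summed level of the list was 6957 and 7395 CPM in viable cells, 2849.7 and 3296 CPM in *Troy*-EGFP+ cells and 10023 and 9802 CPM in *Troy*-EGFP– cells.

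Among transcription factors of the follicle, *Lhx2* and *Foxc1* fell. *Lhx2*, a LIM homeobox factor of HF stem cells (chromosome 2, 38339271 to 38369737), was at 359.9 and 229.9 CPM in viable cells and 18.8 and 27.1 CPM in *Troy*-EGFP+ cells. It was 13-fold lower (log2 fold change -3.70 ± 0.40, adjusted p = 2.57e-05), with 196 and 192 CPM in *Troy*-EGFP– cells. *Foxc1*, a forkhead factor (chromosome 13, 31806646 to 31810635), was at 210.2 and 183 CPM in viable cells and 32.2 and 22.6 CPM in *Troy*-EGFP+ cells, 6.8-fold lower (log2 fold change -2.77 ± 0.37, adjusted p = 0.000529). In *Troy*-EGFP– cells *Foxc1* stood at 483 and 559.8 CPM, higher than in viable cells (adjusted p = 0.00909 by edgeR). Viable cells were thus between the sorted populations for *Foxc1*. *Sox9*, a factor of the bulge and outer root sheath, was at 1611 and 1794 CPM against 622 and 794 CPM (log2 fold change -1.27 ± 0.34, adjusted p = 0.141, and 0.0163 with the mouse as a block). *Vdr*, the vitamin D receptor, was at 734 and 960.1 CPM against 606 and 541 CPM (log2 fold change -0.56 ± 0.31, adjusted p = 0.828). The groups did not overlap for either factor, and the 4-library fit with the block called both.

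Of 24 follicle transcription factors listed, 17 were tested, with a median log2 fold change of -1.08. *Lhx2* and *Foxc1* were called lower, 5 were called with the block and 8 in the 4-library fit with the block. Below both viable libraries lay 13 of 17, against 19.6% of all genes tested. *Id2* and *Id3*, inhibitors of DNA binding that respond to BMP signals, were among the 8 and are named after their values were seen. *Id2* was at 114 and 117 CPM in viable and 37.5 and 45.1 CPM in *Troy*-EGFP+ cells, with an adjusted p of 0.0661 by edgeR and 0.0231 with the block, and *Id3* was at 67.7 and 51.8 CPM against 21.4 and 13.5 CPM. *Zfp36l1*, in the same list and not called, was at 809 and 820 CPM against 994 and 762 CPM, and the groups overlapped. The markers of the lower follicle and bulge were thinly counted, with 7 of 20 tested (median log2 fold change -0.55). *Lhx2* was the 1 called, 3 were called with the block and in the 4-library fit with the block, and 4 lay below both viable libraries. *Fst* (follistatin, an inhibitor of activins), named after its values were seen, was at 146 and 137 CPM against 45.6 and 67.7 CPM (adjusted p = 0.126 by edgeR, and 0.0345 with the block). *Krt15*, a keratin of both bulge and basal IFE cells, was at 7910.2 and 10665 CPM in viable and 8186 and 9399 CPM in *Troy*-EGFP+ cells, and the groups overlapped. The groups overlapped also for *Gas1*, at 527 and 566 CPM against 512 and 636 CPM. For the sebaceous gland, 7 of 20 genes were tested, 0 were called and 4 lay below both viable libraries (median -1.13). *Scd1* was at 203 and 83.4 CPM against 131 and 67.7 CPM, and *Acly* at 107 and 122 CPM against 113 and 67.7 CPM. Both overlapped between the groups. *Plin2*, which coats lipid droplets, was at 128 and 106 CPM against 53.6 and 45.1 CPM (log2 fold change -1.20 ± 0.36, adjusted p = 0.247), and of the 3 edgeR fits above the 4-library fit with the block called it.

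**Figure D3:**
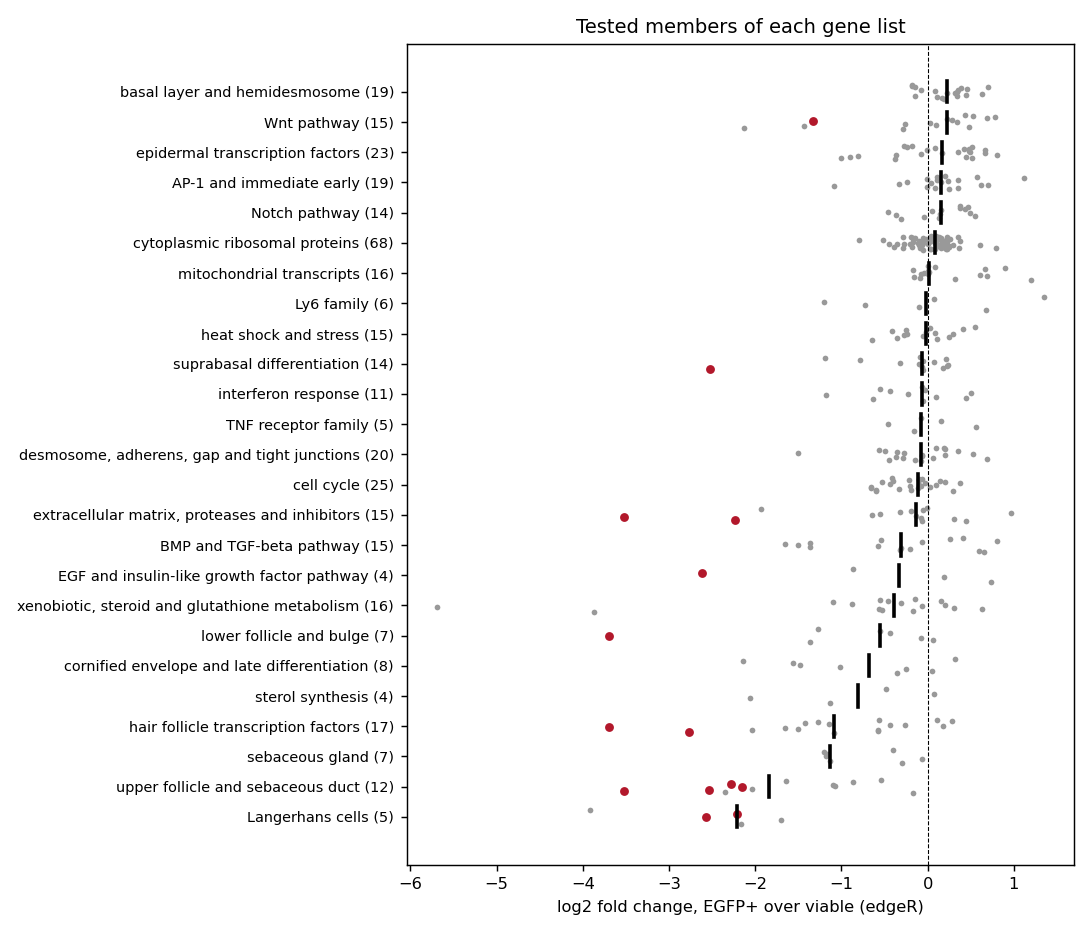
Log2 fold change of *Troy*-EGFP+ over viable cells (x axis) for the tested members of each gene list with at least 4 tested members, whose number is given in brackets. Points are genes, red where called and grey where not, and bars mark the medians, which run from -2.21 for Langerhans cells to 0.23 for the basal layer.

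Class II antigen presentation genes were the other group of falls. *B2m*, the class I light chain, was at 1461 and 1704 CPM in viable and 1511 and 1529 CPM in *Troy*-EGFP+ cells, with overlap. *H2-Ab1* and *H2-Eb1* encode the beta chains of the class II molecules I-A and I-E, which Langerhans cells carry at a high level. *H2-Ab1* (chromosome 17, 34263227 to 34269418) was at 221 and 106 CPM in viable and 34.8 and 13.5 CPM in *Troy*-EGFP+ cells (log2 fold change -2.57 ± 0.47, adjusted p = 0.0134). *H2-Eb1* (chromosome 17, 34305867 to 34316674) was at 135 and 149 CPM against 26.8 and 36.1 CPM (log2 fold change -2.21 ± 0.43, adjusted p = 0.0203). With 1 library left out, the log2 fold change of *H2-Ab1* ran from -3.51 without *Troy*-EGFP+ cells of mouse 1 to -2.01 without viable cells of mouse 1, and its call was lost without the latter or without *Troy*-EGFP+ cells of mouse 2. In *Troy*-EGFP– cells *H2-Ab1* stood at 596 and 414 CPM and *H2-Eb1* at 219 and 472 CPM, the highest of the 3 populations. *H2-Aa*, the alpha chain of I-A, was at 207 and 58.6 CPM in viable cells, with a wide gap between the mice. In *Troy*-EGFP+ cells it was at 42.9 and 31.6 CPM (adjusted p = 0.239 by edgeR, and 0.00994 with the block). Its log2 fold change ran from -2.41 to -0.626 under the alternatives. *Cd74*, the invariant chain, had 12 and 11 counts in viable cells against 0 and 4 in *Troy*-EGFP+ cells, so that the gap was wide in mouse 1 and narrow in mouse 2. Its log2 fold change of -2.16 (adjusted p = 0.582 by edgeR) shrank to -0.816 without *Troy*-EGFP+ cells of mouse 1. *Ptprc*, which encodes the leukocyte antigen CD45, had 23 counts over both viable libraries and 1 over both *Troy*-EGFP+ libraries, a ratio of 19.4 (95% counting interval 3.16 to 801), and its adjusted p was 0.0661 by edgeR and 0.0172 with the block. Such intervals cover counting error only.

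Of 20 Langerhans cell markers, 18 had a count and 5 were tested. All 5 tested lay below both viable libraries (median log2 fold change -2.21), 2 were called and 4 were called with the block. Of all genes tested, 19.6% lay below both. The summed level of the list was 705 and 422 CPM in viable cells, 121 and 101 CPM in *Troy*-EGFP+ cells and 1435 and 1439.8 CPM in *Troy*-EGFP– cells. Both *Troy*-EGFP+ libraries were at 0 for 8 of the 18, as they were for 20.1% of all genes with a count. The defining marker *Cd207* (langerin), named after its values were seen, was one of them, but had only 1 count in each viable library, too few to tell the populations apart. Of 20 T cell markers, 17 had a count, and their sum was 370.3 and 311 CPM in viable, 305 and 207 CPM in *Troy*-EGFP+ and 559 and 223 CPM in *Troy*-EGFP– cells. *Thy1*, the one tested in the fit over 6 libraries, was at 224 and 201 CPM in viable and 319 and 212 CPM in *Troy*-EGFP+ cells. It held nearly all of the T cell marker counts in *Troy*-EGFP+ cells. Summed after this was seen, the other 16 markers had 50 and 52 counts in viable cells against 4 and 2 in *Troy*-EGFP+ cells, or 164 and 115 CPM against 9.9 and 8.43 CPM of the library totals. The split around *Thy1* was made from these values, so this sum is a description only. *Xcl1*, a chemokine of lymphocytes named after its values were seen, had 10 and 13 counts in viable cells and 0 in both *Troy*-EGFP+ libraries. The 4-library fit with the block tested it and called it lower (adjusted p = 0.00159 by edgeR). In all, 10 of the 17 markers were at 0 in both *Troy*-EGFP+ libraries, several of them with few or no counts in viable cells either. Melanocyte markers summed to 118 and 139 CPM in viable and 91.6 and 88.5 CPM in *Troy*-EGFP+ cells, with 6 of 11 at 0 in both *Troy*-EGFP+ libraries and 0 of 2 tested called. Those tested were *Gpnmb*, at 60.6 and 74.4 CPM against 85.7 and 76.7 CPM, and *Mitf*, at 21.4 and 33.8 CPM against 5.36 and 13.5 CPM. Their groups were apart in opposite directions. *Gpnmb* held most of the counts in *Troy*-EGFP+ cells, and the other 10 markers, summed after this was seen, had 19 and 30 counts in viable cells against 5 and 4 in *Troy*-EGFP+ cells, or 62.3 and 66.2 CPM against 12.4 and 16.9 CPM of the library totals. Fibroblast markers summed to 144 and 19.9 CPM in viable cells and 12.4 and 33.7 CPM in *Troy*-EGFP+ cells, with 5 of 11 at 0 in both *Troy*-EGFP+ libraries. The one tested was *Col3a1*, a fibrillar collagen, at 67.7 and 0 CPM in viable cells and 0 in both *Troy*-EGFP+ libraries. Its level thus came from viable cells of mouse 1 alone, and its adjusted p of 0.524 by edgeR became 0.0368 with the block. No member was tested in the lists of endothelial cells, Merkel cells and red blood cells, which summed to at most 4 counts in any of the 4 libraries.

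The other called falls came from several families. *Nt5e*, the ectonucleotidase CD73 (chromosome 9, 88327609 to 88372089), had 0 counts in both *Troy*-EGFP+ libraries, 8 and 24 in viable cells and 10 and 15 in *Troy*-EGFP– cells. With 3 counts over the group set in place of 0, it was 9.02-fold lower in *Troy*-EGFP+ than in viable cells (adjusted p = 0.0153 by edgeR). The 95% counting interval of the ratio, 32 counts to 0, began lower, at 6.92. Its call was lost without viable cells of mouse 2 or *Troy*-EGFP+ cells of mouse 1. *Sfrp1*, a secreted Wnt inhibitor (chromosome 8, 23411383 to 23449632), was at 438 and 435 CPM in viable cells and 169 and 180.4 CPM in *Troy*-EGFP+ cells (log2 fold change -1.32 ± 0.27, adjusted p = 0.0281). The mice of each population lay close together for *Sfrp1*, and *Troy*-EGFP– cells were lower still, at 128 and 111 CPM. *Igfbp4*, which binds insulin-like growth factors, was at 132 and 135 CPM against 29.5 and 9.02 CPM (log2 fold change -2.62 ± 0.56, adjusted p = 0.0397). *Alox12e*, a lipoxygenase of the epidermis named like *Scand1* and *Rnf10* below so that every called gene is shown, was at 1276 and 856 CPM against 405 and 325 CPM (log2 fold change -1.53 ± 0.33, adjusted p = 0.0397). In *Troy*-EGFP– cells *Igfbp4* stood at 219 and 717 CPM, above both viable libraries, while *Alox12e* stood at 1721 and 985 CPM and overlapped them. *Col6a1*, a chain of collagen VI, was at 85.5 and 90.2 CPM against 21.4 and 13.5 CPM, and its log2 fold change was -2.23 ± 0.45 (adjusted p = 0.0251). For *Col6a1* the *Troy*-EGFP– libraries were as low, at 7.55 and 11.7 CPM. *Tgm5*, a transglutaminase that crosslinks the cornified layer, was at 82 and 119 CPM against 24.1 and 9.02 CPM, and its log2 fold change was -2.46 ± 0.48 (adjusted p = 0.0193). The log2 fold changes of *Igfbp4* and *Tgm5* rested on the *Troy*-EGFP+ library used: without that of mouse 1 they were -3.81 for *Igfbp4* and -3.43 for *Tgm5*, and without that of mouse 2 they were -2.17 and -2.08, with neither gene called.

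*Calml3*, a calmodulin-like protein of keratinocytes, was at 89.1 and 54.1 CPM in viable and 16.1 and 4.51 CPM in *Troy*-EGFP+ cells (log2 fold change -2.52 ± 0.55, adjusted p = 0.0397). *Alcam*, the adhesion molecule CD166, was at 96.2 and 69.9 CPM against 5.36 and 22.6 CPM (log2 fold change -2.72 ± 0.56, adjusted p = 0.0281). Both *Troy*-EGFP+ libraries lay below both viable libraries for each gene, although the *Troy*-EGFP+ libraries differed by more than 3-fold between the mice. Without *Troy*-EGFP+ cells of mouse 1 the log2 fold change was -3.80 for *Calml3* and -1.83 for *Alcam*, and without those of mouse 2 it was -2.08 for *Calml3* and -3.82 for *Alcam*. Of these 4 values only the last was called. *S100a4*, a calcium-binding protein, had 39 counts over both viable libraries and 4 over both *Troy*-EGFP+ libraries, a ratio of 8.24 (95% counting interval 2.98 to 31.8, adjusted p = 0.0414 by edgeR). *Scand1*, which encodes a protein with a SCAN domain, was at 160.3 and 144 CPM against 32.2 and 54.1 CPM (log2 fold change -1.87 ± 0.36, adjusted p = 0.0199). *Rnf10*, a RING finger protein, was at 224 and 340.3 CPM against 102 and 108 CPM (log2 fold change -1.44 ± 0.32, adjusted p = 0.0414). For both genes the *Troy*-EGFP– libraries overlapped the viable ones, at 181 and 128 CPM for *Scand1* and 287 and 198 CPM for *Rnf10*. Of the 19 falls, 15 were also called lower in *Troy*-EGFP+ than in *Troy*-EGFP– cells, a comparison in which 328 genes were called (7.05%). It shares the *Troy*-EGFP+ libraries with the comparison described here. The other 4, *Krt17*, *Tgm5*, *Col6a1* and *Sfrp1*, were called lower in *Troy*-EGFP– than in viable cells, a comparison in which 83 genes were called (1.78%) and which shares the viable libraries with the one described here. *Defb6*, *Foxc1*, *H2-Ab1* and *Igfbp4* were called higher in *Troy*-EGFP– than in viable cells.

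The fit over 6 libraries called 3 genes higher in *Troy*-EGFP+ than in viable cells. *Mir5109*, a row on chromosome 5 named for a microRNA gene, was at 14.3 and 13.5 CPM in viable cells and 91.1 and 135 CPM in *Troy*-EGFP+ cells. It was 7.75-fold higher (log2 fold change 2.95 ± 0.47, adjusted p = 0.00322) and stood at 30.2 and 64.1 CPM in *Troy*-EGFP– cells. CEL-Seq2 primes on poly(A), so this row counts reads at the gene and says nothing of a mature microRNA. *Ikzf2*, which encodes the zinc finger transcription factor Helios (chromosome 1, 69531207 to 69687351), was at 67.7 and 113 CPM in viable and 241 and 248 CPM in *Troy*-EGFP+ cells. It was 2.62-fold higher (log2 fold change 1.39 ± 0.31, adjusted p = 0.0414), and *Troy*-EGFP– cells were lowest, at 37.7 and 40.8 CPM. *Eif4g3*, a scaffold of translation initiation (chromosome 4, 137991779 to 138207086), was at 82 and 49.6 CPM against 169 and 185 CPM, 2.76-fold higher (log2 fold change 1.46 ± 0.32, adjusted p = 0.0414). *Troy*-EGFP– cells held 37.7 and 46.6 CPM of it. Of the 3, *Mir5109* alone kept its call without each single library of the 4, and DESeq2 called none of them.

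The genes behind the sorting gate did not pass the test. *Itga6* was at 118 and 178 CPM in viable and 139 and 221 CPM in *Troy*-EGFP+ cells (log2 fold change 0.22 ± 0.34, adjusted p = 0.986), and the groups overlapped. *Tnfrsf19*, the gene of TROY, was at 85.5 and 83.4 CPM against 109.9 and 72.2 CPM (log2 fold change 0.15 ± 0.33, adjusted p = 0.997), and mouse 1 was higher in *Troy*-EGFP+ cells while mouse 2 was lower. The coding region of *Troy* is replaced in the knockin allele, and EGFP itself was not analysed here. With 1 library left out, the log2 fold change ran from -0.113 to 0.593 for *Itga6* and from -0.218 to 0.375 for *Tnfrsf19*, so neither direction held. *Ly6a*, which encodes SCA1, a surface marker of IFE and infundibulum cells, was at 125 and 106 CPM against 204 and 158 CPM (log2 fold change 0.68 ± 0.31, adjusted p = 0.688), with both *Troy*-EGFP+ libraries above both viable ones. In *Troy*-EGFP– cells *Itga6* stood at 30.2 and 87.5 CPM and *Tnfrsf19* at 22.6 and 35 CPM. Both genes were called higher in *Troy*-EGFP+ than in *Troy*-EGFP– cells (adjusted p = 0.0449 for *Itga6* and 0.0434 for *Tnfrsf19* by edgeR), with 3 to 15 counts per *Troy*-EGFP– library.

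None of the basal layer genes of the IFE and 1 of its suprabasal genes passed the test. *Krt5*, the basal keratin, was at 13055 and 13787 CPM in viable and 17637 and 16724 CPM in *Troy*-EGFP+ cells (log2 fold change 0.36 ± 0.33, adjusted p = 0.97). Its partner *Krt14* was at 5138 and 6016 CPM against 5938 and 5881 CPM (log2 fold change 0.08 ± 0.31, adjusted p = 0.998). For *Krt5* the groups did not overlap and for *Krt14* they did. The suprabasal keratins *Krt1*, at 1233 and 1001 CPM against 1332 and 1267 CPM, and *Krt10*, at 1016 and 823 CPM against 1002 and 1168 CPM, had log2 fold changes of 0.22 ± 0.29 and 0.24 ± 0.28 and were not called either. For *Krt1* both *Troy*-EGFP+ libraries lay above both viable ones, and for *Krt10* the groups overlapped. The cells gated as basal thus held suprabasal keratin transcripts at about the level of the whole epidermis, while in *Troy*-EGFP– cells *Krt1* stood at 385 and 257 CPM. Of 20 basal layer and hemidesmosome genes, 19 were tested and 0 were called, with 8 above both viable libraries and 1 below (median log2 fold change 0.23). The shares over all genes tested were 20.6% above and 19.6% below. The 4-library fit with the block called *Itga3*, an integrin of the basement membrane, and *Dst*, the hemidesmosomal plakin dystonin, both named after their values were seen. *Itga3* was at 321 and 498 CPM in viable and 616 and 668 CPM in *Troy*-EGFP+ cells, and *Dst* at 2195 and 1916 CPM against 2953 and 2638 CPM.

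Of 20 suprabasal genes, 14 were tested and 1, *Calml3*, was called lower (median -0.06). The galectin gene *Lgals7* was at 2295 and 1584 CPM in viable cells and 1519 and 1574 CPM in *Troy*-EGFP+ cells, with viable cells of mouse 1 standing above the other 3. Genes of the cornified envelope were thinly counted, with 8 of 30 tested and 0 called (median -0.69). Below both viable libraries lay 4 of the 8, against 19.6% of all genes tested. The block called 2 genes of the list lower, *Sprr1a* and *Klk7*. The 4-library fit with the block added *Lor*, and all 3 are named after their values were seen. *Sprr1a*, a precursor of the cornified envelope, was at 114 and 47.3 CPM against 13.4 and 22.6 CPM. Its log2 fold change was -2.14 ± 0.56 (adjusted p = 0.126 by edgeR, and 0.0172 with the block) and ran from -2.7 to -1.47 under the alternatives. *Klk7*, a protease that sheds cornified cells, was at 118 and 58.6 CPM against 37.5 and 18 CPM. Its log2 fold change was -1.49 ± 0.54 (adjusted p = 0.497 by edgeR, and 0.025 with the block) and ran from -2.2 to -0.985 under the alternatives. *Lor*, the envelope protein loricrin, was at 103 and 63.1 CPM against 26.8 and 27.1 CPM (log2 fold change -1.57 ± 0.49, adjusted p = 0.272). All 3 lay below both viable libraries, where mouse 1 was the higher. *Casp14*, a protease of cornification, was at 299 and 198 CPM against 249 and 262 CPM, and *Elovl4*, which lengthens fatty acids of barrier lipids, was at 335 and 234 CPM against 263 and 207 CPM. The groups overlapped for *Casp14* and *Elovl4*. They also overlapped for *Tgm3*, at 60.6 and 58.6 CPM in viable and 102 and 36.1 CPM in *Troy*-EGFP+ cells.

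**Figure D4:**
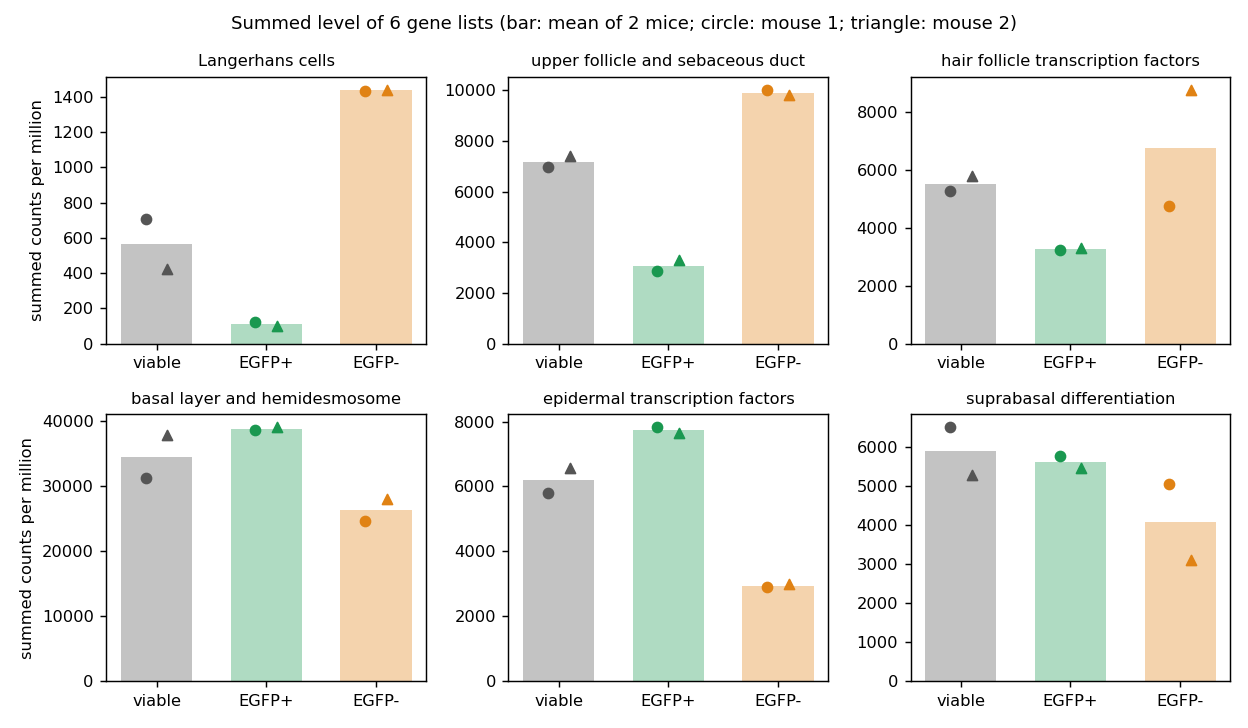
Summed CPM, scaled by library total, of 6 gene lists in viable, *Troy*-EGFP+ and *Troy*-EGFP– cells. Bars are means of 2 mice and points are single mice, circles for mouse 1 and triangles for mouse 2. For Langerhans cells and the upper follicle, *Troy*-EGFP+ cells are lowest and *Troy*-EGFP– cells highest, and for epidermal transcription factors the order is the opposite.

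Transcription factors of the epidermis gave no call. Of 30 listed, 23 were tested and 0 were called, with 10 above both viable libraries, 5 below and a median log2 fold change of 0.17. The shares over all genes tested were 20.6% above and 19.6% below. *Gata3* was at 1119 and 1339 CPM in viable and 1720.3 and 1619 CPM in *Troy*-EGFP+ cells (log2 fold change 0.44 ± 0.28, adjusted p = 0.879), and *Klf5* at 588 and 523 CPM against 732 and 825 CPM (log2 fold change 0.49 ± 0.27, adjusted p = 0.826). *Hlf*, a bZIP factor named after its values were seen, was at 299 and 354 CPM against 541 and 609 CPM, and the 4-library fit with the block called it, as it did 1 more. The summed level of the list was 5791 and 6580.5 CPM in viable cells, 7826 and 7651 CPM in *Troy*-EGFP+ cells and 2882 and 2996 CPM in *Troy*-EGFP– cells, so the populations did not overlap. Immediate early genes, which enzymatic dissociation of tissue is known to induce, were measured in the same libraries. Of 24, 19 were tested and 0 were called, with 10 above both viable libraries and 2 below (median 0.16). *Fos*, named after its values were seen, was at 456 and 487 CPM against 742 and 789 CPM and was called in the 4-library fit with the block. *Jun* was at 1247 and 1713 CPM against 1661 and 1651 CPM. The groups did not overlap for *Fos*, and they did for *Jun*. *Klf4*, which is in both lists, was at 755 and 1034 CPM against 1200.4 and 1096 CPM. *Egr2*, named after its values were seen, moved the other way, at 167 and 144 CPM against 67 and 81.2 CPM, and was called in the 4-library fit with the block alone of the 3.

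Signaling pathways gave 1 called gene in each of the Wnt list and the EGF and insulin-like growth factor list. Of 15 tested Wnt genes (median 0.22), *Sfrp1* was the 1 called, with 4 above and 4 below both viable libraries. Over all genes tested the shares were 20.6% above and 19.6% below. The 4-library fit with the block added *Fzd2* and *Fzd1*, Wnt receptors named after their values were seen. *Fzd2* was at 103 and 113 CPM against 45.6 and 31.6 CPM (log2 fold change -1.43 ± 0.37, adjusted p = 0.119) and *Fzd1* at 49.9 and 42.8 CPM against 8.04 and 13.5 CPM (log2 fold change -2.12 ± 0.63, adjusted p = 0.247). Both lay below both viable libraries. *Wnt4*, a ligand, was at 114 and 124 CPM in viable and 190.2 and 149 CPM in *Troy*-EGFP+ cells (log2 fold change 0.52 ± 0.30). Of 15 tested BMP and TGF-beta genes 0 were called, 2 with the block and 5 in the 4-library fit with the block, with 8 below both viable libraries and 2 above (median -0.31). Of 4 tested genes of the EGF and insulin-like growth factor pathway, *Igfbp4* was called. *Lrig1*, a brake on EGF receptors, was at 92.6 and 51.8 CPM against 48.2 and 22.6 CPM, and the ligand *Epgn* at 49.9 and 58.6 CPM against 96.5 and 85.7 CPM. For both of these the groups did not overlap, *Lrig1* being lower and *Epgn* higher in *Troy*-EGFP+ cells. None of 14 tested Notch genes was called by any of the 3 edgeR fits named so far (median 0.15), and the Notch target *Hes1* was at 146 and 128 CPM against 107 and 104 CPM. Of 5 tested TNF receptor family members 0 were called (median -0.07). *Ngfr*, the neurotrophin receptor p75, was at 114 and 165 CPM in viable and 185 and 239 CPM in *Troy*-EGFP+ cells.

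The remaining lists held few calls. The 4-library fit with the block called 1 gene of the cell cycle, 2 of sterol synthesis, 2 of xenobiotic metabolism, 2 of the Ly6 family and 3 of the extracellular matrix list lower, and 1 gene each of the junction, interferon, heat shock and extracellular matrix lists higher. Of 25 tested cell cycle genes 0 were called (median -0.11), with 1 above and 5 below both viable libraries. Of all genes tested, 20.6% lay above both and 19.6% below both. Of 20 junction genes 0 were called (median -0.07), and the desmosomal *Dsp* was at 2529.9 and 2648 CPM against 3274 and 2652 CPM. Of 11 interferon response genes 0 were called (median -0.07). *Oas1f*, of the oligoadenylate synthetase family, was at 459.6 and 674 CPM against 750.3 and 870.5 CPM and only 166 and 105 CPM in *Troy*-EGFP– cells, and was called in the 4-library fit with the block. Of 15 heat shock and stress genes 0 were called (median -0.02), as were 0 of 4 genes of sterol synthesis (median -0.81). Of 16 genes of xenobiotic, steroid and glutathione metabolism 0 were called and 2 with the block (median -0.39). Of 15 genes of the extracellular matrix, proteases and inhibitors, *Cst6* and *Col6a1* were called (median -0.13). Of 6 Ly6 family genes 0 were called (median -0.01), and *Ly6g6c* was called with the block. It was at 274 and 221 CPM in viable and 113 and 99.2 CPM in *Troy*-EGFP+ cells (adjusted p = 0.247 by edgeR, and 0.0192 with the block). *Ly6e*, a small anchored surface protein, was at 677 and 656 CPM against 464 and 334 CPM, and 2401 and 2070 CPM in *Troy*-EGFP– cells.

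Of 68 tested cytoplasmic ribosomal protein genes 0 were called (median 0.08). Above both viable libraries lay 14 and below both 12, near the shares of 20.6% and 19.6% over all genes tested. The 4-library fit with the block called 1 higher and 2 lower. Of 16 tested mitochondrial transcripts 0 were called and 7 lay above both viable libraries (median 0.01). The block called 1, *mt-Rnr1*, the small ribosomal RNA of the mitochondrion, and the 4-library fit with the block called 6. *mt-Rnr1* was at 4739 and 3442 CPM in viable and 9180.1 and 9526 CPM in *Troy*-EGFP+ cells (log2 fold change 1.19 ± 0.35, adjusted p = 0.239, and 0.048 with the block). The mitochondrial subunit genes *mtNd4*, at 19947 and 19949 CPM against 27286 and 35991 CPM, and *mtCo1*, at 7518 and 7352 CPM against 11905 and 10834 CPM, did not overlap between the groups. The mitochondrial share of counts was 13.8% and 12.5% in viable and 15.4% and 16.1% in *Troy*-EGFP+ cells, and its part in the levels of other genes was not tested. With these transcripts left out, the same 22 genes were called. Among the 10 genes with the highest level in *Troy*-EGFP+ cells, 7 were mitochondrial, and the other 3 were *Krt5*, *Rpl4* and *Ppt1*. *Ppt1*, a lysosomal thioesterase, was at 5605 and 5856 CPM in viable and 10498 and 9043 CPM in *Troy*-EGFP+ cells (log2 fold change 0.77 ± 0.33, adjusted p = 0.62), and *Rpl4* was at 11509 and 12962 CPM against 11895 and 11731 CPM.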

How the data were processed

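Epidermis was taken from telogen back skin, dissociated and sorted, and mRNA of each population was made into CEL-Seq2 libraries with molecular barcodes. The authors deposited whole-number counts per gene for each bulk library, with no normalization. BWA 0.6.2-r126 and the builds mm10 and hg19 are named in the submitters' processing notes, and the annotation and the use of molecular barcodes in the bulk tables are not given in the sources used here. The authors compared populations with DESeq2 at standard parameters, and their own comparison results were not used. The single-cell tables were not used here.

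Rows of both mice were joined by symbol, and a gene absent from 1 table was set to 0 there. Of 16214 genes with a count, 4653 passed edgeR's filterByExpr. Counts of all 6 bulk libraries were scaled by TMM and fitted with population as the term, and *Troy*-EGFP+ minus viable cells was tested with edgeR's quasi-likelihood F test (edgeR 4.0.16, limma 3.58.1 and R 4.3.3) at a Benjamini-Hochberg adjusted p of 0.05. Levels of single genes are CPM of the counts in tested genes after TMM, and summed levels of lists are CPM of the library total. The alternatives were DESeq2 1.42.0, DESeq2 size factors, other count filters, fits of the 4 libraries alone, the mouse as a block, no mitochondrial transcripts, and leaving out each library. Scripts were tested on simulated counts. With 2 animals per population, p-values measure the spread between these samples only, and the main fit leaves 3 residual degrees of freedom.

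Libraries with the same number came from the same mouse, which pairs them. Deviations of same-numbered libraries from their population means correlated at 0.0859 for *Troy*-EGFP+ and viable cells, 0.09 for *Troy*-EGFP– and viable cells and 0.0521 for *Troy*-EGFP+ and *Troy*-EGFP– cells, across genes.

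The members and gene lists were chosen with earlier results of these data known. Genes were named by rule: *Itga6*, *Tnfrsf19* and *Ly6a*, the 12 largest called rises and falls with at least 20 counts in the higher population, up to 4 called and up to 3 uncalled members of each list, the latter by highest CPM, and the 10 highest genes of *Troy*-EGFP+ cells. Other genes are named as chosen after their values were seen. Some uncalled list members that the rule picks, among them *Ctnnb1*, *Lrp6*, *Igf1r*, *Notch1* and *Aph1a*, are not printed. Mitochondrial transcripts are the rows on the mitochondrial chromosome. Coordinates and promoter windows are RefSeq's for GRCm38.p6, whose gene table held 21 of the 22 called genes. Motifs were searched on both strands, with N for any base.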

Additional observations from a re-analysis of the deposited data

How the results depend on the processing

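The count of 22 called genes moved to 10 with DESeq2, 43 with no filter on low counts, 49 with the mouse as a replicate block, 66 in the 4 libraries without the block and 185 in the 4 libraries with it, and to between 7 and 124 when 1 library was left out. In an arm left with 1 library, that library was assumed to vary like the others. DESeq2 size factors and the fit without mitochondrial transcripts called the same 22, and a minimum of 10 counts in 2 libraries called 24. *Cst6*, *Lhx2* and *Foxc1* were called under each of the 14 alternatives run. No called gene changed direction under any of these alternatives. Of the 306 values of called genes under the alternatives, 60 lost the call and 246 kept it. Among the 63 uncalled genes computed under the alternatives, 10 values turned. With 1 library left out, the log2 fold change ran from -0.223 to 0.346 for *Casp14*, from -0.113 to 0.593 for *Itga6*, from -0.0643 to 0.417 for *Jun*, from -1.33 to 0.00566 for *Kcnq1ot1*, from -0.0413 to 0.21 for *Krt14*, from -0.294 to 0.161 for *Krt15*, from -0.15 to 0.0456 for *Rpl4* and from -0.218 to 0.375 for *Tnfrsf19*. The causes were not tested. The mouse as a block over 6 libraries changed no call of a named gene other than those whose p with the block is given. Depth limits what can be said of genes under about 10 counts per library, which include most markers of other cell types.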

Other observations

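Some genes outside the lists, chosen here after their values were seen, were called in the 4-library fit with the mouse as a block and lay without overlap between *Troy*-EGFP+ and viable cells. Levels are CPM in mouse 1 and mouse 2. *Ascl2*, a basic helix-loop-helix transcription factor, was at 71.3 and 85.6 CPM in viable and 196 and 180.4 CPM in *Troy*-EGFP+ cells (log2 fold change 1.25 ± 0.30, adjusted p = 0.0752 by edgeR and 0.0225 with the block over 6 libraries), and at 45.3 and 35 CPM in *Troy*-EGFP– cells. *Slc6a4*, the serotonin transporter, was at 175 and 255 CPM in viable and 434 and 523 CPM in *Troy*-EGFP+ cells (log2 fold change 1.13 ± 0.28, adjusted p = 0.0872 by edgeR and 0.00996 with the block over 6 libraries). The *Troy*-EGFP+ libraries of both genes stood well above the viable ones, and both genes passed the threshold where the mouse was a block or where a *Troy*-EGFP– library was left out. *Sema3c*, a secreted semaphorin, was at 196 and 180.3 CPM in viable and 348 and 307 CPM in *Troy*-EGFP+ cells, and *Fth1*, the heavy chain of the iron store ferritin, at 912 and 992 CPM against 1377 and 1358 CPM.

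In the other direction, *S100a6*, a calcium-binding protein, was at 1899 and 2105 CPM in viable and 954 and 1046 CPM in *Troy*-EGFP+ cells (adjusted p = 0.247 by edgeR), and at 3941 and 3411 CPM in *Troy*-EGFP– cells. *Marcksl1*, a substrate of protein kinase C, was at 321 and 221 CPM in viable and 107 and 76.7 CPM in *Troy*-EGFP+ cells (adjusted p = 0.0859 by edgeR and 0.00133 with the block over 6 libraries), and at 679 and 315 CPM in *Troy*-EGFP– cells. For both genes the order of the 3 populations was *Troy*-EGFP+, viable and *Troy*-EGFP– from low to high within each mouse.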
